A study of Mus musculus with 21 samples.

Results

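The comparison described here is that of mice fed a high-fat diet with the bacterium Bacillus coagulans (group BC) against mice fed the high-fat diet alone (group HFD), read out as gene expression in epididymal fat. It uses 6 of the 21 arrays of the study, 3 for each group, chosen by their titles and group labels. Every gene with a probe annotated to a single gene symbol was tested, 16248 genes in all, and where a gene had several such probes the probe with the highest mean over the 21 arrays stood for it. All mice were male C57BL/6J animals that arrived at 4 weeks of age, were housed singly, had 1 week of acclimation on chow and were then fed their diet for 12 weeks. The high-fat diet supplied 40 percent of its energy as fat, and the BC diet was the same diet with 0.3 percent of the bacterium by weight, which the labels spell Bacilus Coagulans. HFD mice received no supplement. Of 10 mice stated for each of these groups, 3 gave an array, with no label telling how they were picked, and the sources used here name neither the strain of the bacterium nor its viable count.

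The wider study asked how a fermented mixed grain product affects adiposity in mice made obese by diet, and BC is its arm with the bacterium by itself. It also held a normal diet group (ND, 10 percent of energy from fat) and 4 further groups labelled with the high-fat diet and a supplement, each with 3 arrays. SMG had 0.3 percent steamed grain, L_FMG had 0.3 percent and H_FMG 0.9 percent fermented mixed grain, and the labels do not say what the RMG supplement was.

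Bacillus coagulans is a spore-forming bacterium that makes lactic acid and is sold as a probiotic. Epididymal fat is the visceral depot most often sampled in obese mice. As it expands on a high-fat diet it typically gathers macrophages, many of which surround dying adipocytes and take up their lipid, while genes of lipid synthesis and of small vessels tend to be expressed less per amount of tissue RNA. Bacterial products can reach fat through the circulation and are sensed there by Toll-like receptors, of which Tlr4 with its co-receptor Ly96 binds endotoxin.

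The values were log2 levels and ran from 0.84 to 12.7 over the table. The medians of the 6 BC and HFD arrays lay between 4.23 and 4.33, and no 2 of the 21 arrays held identical values. Genes of chromosomes 7, 8, 9 and X were nearly unmeasured (between 0.1 and 0.5 percent of protein-coding genes) and those of chromosome 6 were measured in part (42 percent), so that 419 of 615 genes on the lists used below had a value. The labelled tissue was borne out by adipocyte genes: Fabp4, the fatty acid carrier of adipocytes, had levels between 12.08 and 12.29 on the 6 arrays, and Lep, which encodes leptin, between 11.46 and 11.74. Odf1, a gene of the sperm tail, had levels between 11.19 and 11.50 on the same arrays, with overlapping groups. It was not typical of its list: of 13 measured epididymis and sperm genes, 2 reached the median gene in mean level. The title numbers (4, 7 and 11 in BC, 4, 6 and 7 in HFD) are used below to name arrays.

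No gene differed between BC and HFD past the threshold. Of 16248 genes, 0 were called higher (0 percent) and 0 lower (0 percent) at an adjusted p of 0.05 by limma with Benjamini-Hochberg adjustment. At an unadjusted p of 0.05 there were 841 genes, or 5.18 percent of those tested, of which 401 (2.47 percent) were higher and 440 (2.71 percent) lower in BC. The smallest adjusted p was 0.363, for Clec4a4, and the next was 0.917. The 3 BC arrays lay above all HFD arrays for 1155 genes (7.11 percent) and below them for 1195 (7.35 percent). P-values here rest on the spread between single mice, the only spread that 3 arrays a group can show, pooled over the 7 groups and moderated by limma. A standard error can thus exceed the spread of a gene's BC and HFD arrays, as for Elovl6 (SD 0.13 in BC and 0.04 in HFD, SE 0.28).

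The differences themselves were small. The median difference over all genes was 0.01, 52.3 percent of genes had a positive estimate, and the median size of the estimates was 0.10, with the 95th percentile at 0.36 and the 99th at 0.53. The median standard error was 0.15, so a typical 95% interval extended 0.31 to each side of its estimate. For 98.2 percent of genes the interval lay within 1 log2 unit of 0, which is a fold of 2 in either direction, and for 69.4 percent it lay within 0.5. In data simulated with the fitted spread, 67 genes differed by 0.5 log2 units, 67 by 1 and 66 by 1.5. Differences of 1 were recovered for 89.6 percent of genes and those of 0.5 for 29.9 percent. The adjustment is milder the more genes truly change, and how many do is not known for the real data. None of the 6 real estimates above 1 in size passed the threshold. Their standard errors, from 0.26 to 0.66, were above the median, so they do not show how a difference of 1 with a typical spread would fare. These shares thus do not carry over to the comparison itself, where differences of either size could be missed. The plot of every gene tested shows the cloud centred on 0.

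**Figure D1:**
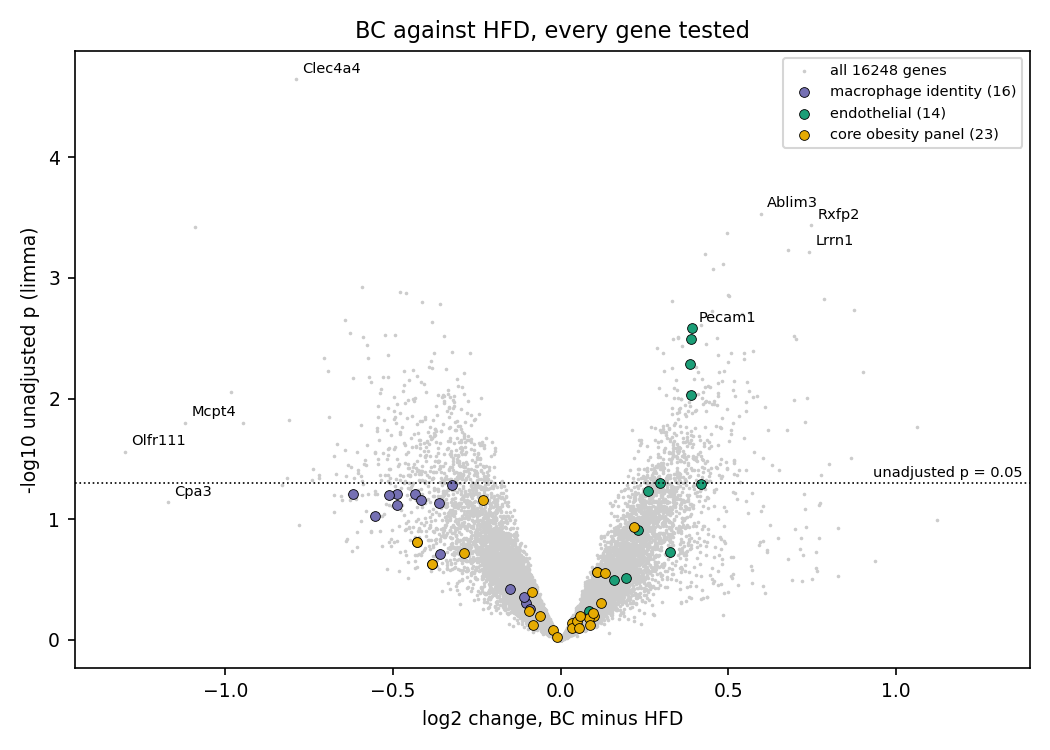
Log2 difference between BC and HFD (x axis, BC minus HFD) against the -log10 of the unadjusted limma p (y axis) for each of 16248 genes, with 3 gene lists in colour (genes on the panel and another list have the panel's colour). The macrophage identity genes lie left of 0, the endothelial genes right of 0 and the obesity panel on both sides, and no gene reached an adjusted p of 0.05.

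The gene with the smallest p was Clec4a4, which encodes an inhibitory C-type lectin receptor of dendritic cells. Its level was 3.02, 3.09 and 3.20 on the HFD arrays and 2.09, 2.50 and 2.35 on the BC arrays. Every BC array lay at least 0.5 log2 units below every HFD array, and the BC arrays overlapped those of ND (2.34, 2.62 and 2.30). The difference was -0.79 ± 0.14 (SE), with a 95% interval from -1.09 to -0.49 and an adjusted p of 0.363 by limma. These levels are in the lower part of the range of the table, and the difference lay between -0.88 and -0.68 over the alternative analyses.

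On the higher side 10 genes were picked for the smallest p among those with BC arrays wholly above the HFD arrays. The first was Ablim3, an actin-binding LIM protein. It read 7.35, 7.04 and 7.36 in HFD and 7.95, 7.78 and 7.82 in BC. The difference was 0.60 ± 0.14 (SE) with an adjusted p of 0.917 by limma. Rxfp2, the receptor for the testicular hormone Insl3, read 2.64, 2.58 and 2.94 in HFD and 3.47, 3.18 and 3.76 in BC. Its difference of 0.75 ± 0.17 (SE) had the same adjusted p. Lrrn1, a leucine-rich repeat membrane protein of neurons, read 4.37, 4.73 and 4.52 in HFD against 5.28, 5.02 and 5.54 in BC, a difference of 0.74 ± 0.18 (SE). The remaining genes of this group were Lin28a, which blocks maturation of let-7 microRNAs (0.50), Il17re, a receptor subunit for interleukin 17C (0.50), the endosome recycling factor Rab11fip3 (0.46), Mettl26 (0.49), Ankrd6 (0.43), the olfactory receptor gene Olfr1040 (0.50) and Mup6 (0.68). Mup6 belongs to a family of near-identical urinary protein genes, so its probe may read other members, and its levels, between 1.35 and 2.45, were among the lowest in the table. For Lin28a it was HFD that stood apart, with a mean of 3.68. The mean was 4.17 in BC, 4.07 in ND and 4.16 over the other 4 supplemented groups.

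On the lower side, where 10 genes were picked in the same way, 2 of those after Clec4a4 belong to families expressed in immune cells. Ms4a4a, a membrane protein of macrophages, read 6.09, 6.60 and 6.32 in HFD and 5.36, 6.02 and 5.75 in BC, with no overlap and a difference of -0.63 ± 0.18 (SE). Ly6i, a surface protein of the Ly6 family, read 2.88, 3.49 and 3.08 in HFD and 2.53, 2.47 and 2.88 in BC, where the highest BC array came close to the lowest HFD array. The others were Zfp457 (-0.59), Krba1 (-0.49), the secreted protein Pamr1 (-0.48), Dsel, an enzyme of dermatan sulfate (-0.41), Trmt112, a partner of several methyltransferases (-0.36), Mtrf1l, a mitochondrial translation release factor (-0.35), and Cdadc1 (-0.33). All 20 of these genes had adjusted p-values between 0.363 and 0.917 and unadjusted ones between 2.24e-05 and 0.00413. None of the 20 turned sign under any alternative analysis, where the smallest adjusted p by limma for any of them was 0.147. They were picked for BC and HFD arrays that did not overlap, so leaving out a single array could not turn a sign.

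**Figure D2:**
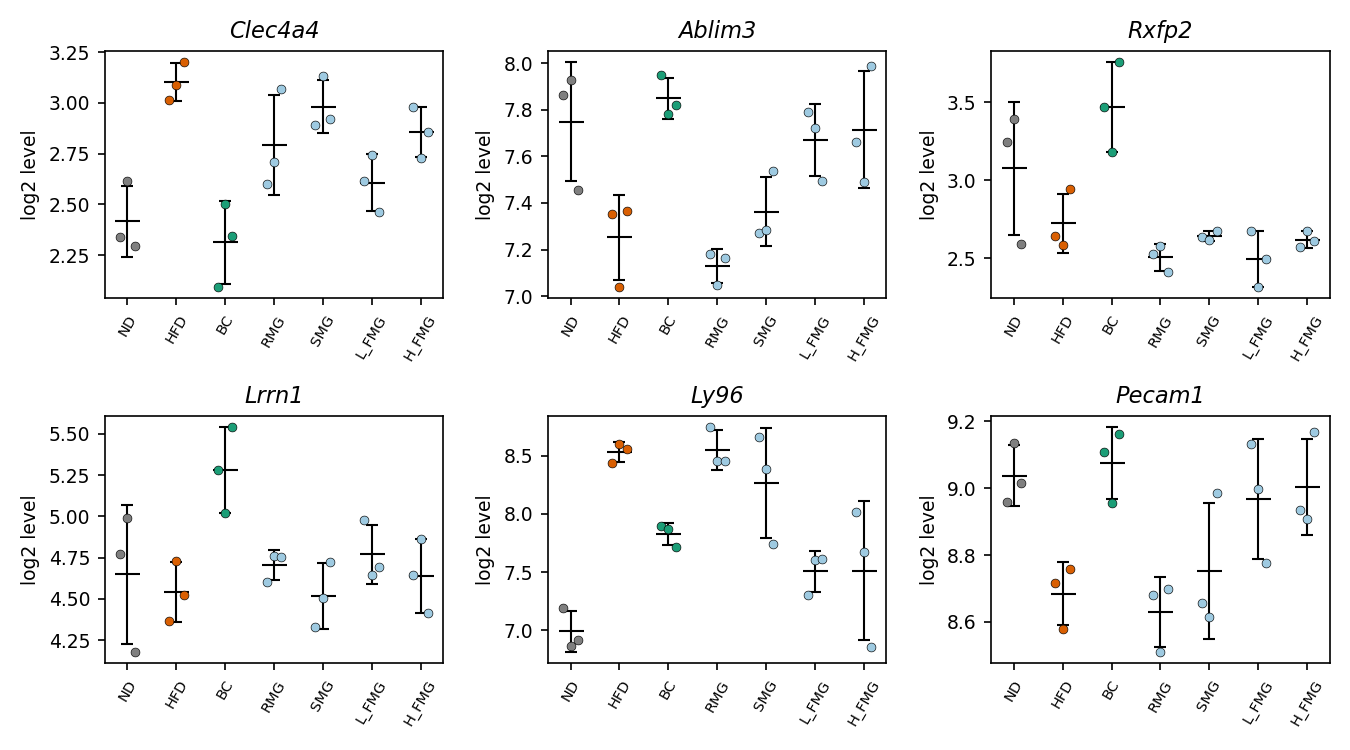
Log2 levels of 6 genes on every array of the 7 groups, with points for single arrays and bars for the group mean ± SD (3 arrays each). BC lies apart from HFD for all 6, and for Rxfp2 and Lrrn1 it also lies above every array of the 4 other supplemented groups. Clec4a4, Ablim3, Rxfp2 and Lrrn1 were picked among genes without overlap of BC and HFD. Ly96 and Pecam1 were picked as among the 2 genes of their list with the smallest p for BC against HFD. Rxfp2 and Lrrn1 were also picked among genes without overlap of BC and the other supplemented groups.

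Macrophage genes had lower mean levels in BC, and none of them passed the test. All 16 measured macrophage identity genes had a negative estimate, where 47.7 percent of all genes did, and their median difference was -0.40 against 0.01 over all genes. The count past the threshold was 0 of 16, the count at an unadjusted p of 0.05 was also 0 of 16, and 5 of 16 had BC arrays wholly below the HFD arrays, where 7.35 percent of all genes did. In bulk tissue, fewer cells of a type and less RNA of a gene per cell cannot be told apart, here or for the lists that follow.

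Mpeg1, a pore-forming protein of macrophages, read 9.01, 9.22 and 8.86 in HFD and 8.23, 8.85 and 8.48 in BC, so that the highest BC array reached only the lowest HFD array. Its difference was -0.51 ± 0.26 (SE), with an interval from -1.06 to 0.03. Fcgr1, the high-affinity receptor for immunoglobulin G, read 7.56, 8.13 and 7.66 in HFD and 6.78, 7.57 and 7.14 in BC, with the groups overlapping slightly and a difference of -0.62 ± 0.31 (SE). The 3 chains of complement C1q, which macrophages make, had differences of -0.43 for C1qa, -0.49 for C1qb and -0.49 for C1qc. Differences were -0.55 for Ms4a7, -0.38 for Adgre1, a surface receptor of macrophages, -0.43 for Cd68 and -0.36 for Csf1r, the receptor for macrophage growth factor. Closest to 0 were Lyz2 (-0.11), Cd163 (-0.10), a marker of resident macrophages, and Timd4 (-0.09), another one.

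Within BC the list followed the single mouse. Its mean level relative to the HFD mean was -0.64 on BC array 4, -0.12 on array 7 and -0.33 on array 11, against -0.07, 0.12 and -0.05 on the HFD arrays and -1.11, -1.13 and -0.69 on the ND arrays. The BC and HFD arrays did not overlap, and the gap between BC arrays 4 and 7 was wider than the whole spread of HFD. BC array 4 was the lowest BC array for 15 of the 16 genes. Without it the median difference was -0.24, and without BC array 7 it was -0.54, with 8 of the 16 genes at an unadjusted p of 0.05. Without BC array 4 or without BC array 11, 15 of the 16 estimates were negative.

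Genes of lipid-associated macrophages, the lipid-laden cells that ring adipocytes in obese fat, gave a median difference of -0.22. Of 12 measured, 9 had negative and 3 positive estimates, 0 had an unadjusted p of 0.05 and 2 lay below HFD on every BC array, where 7.35 percent of all genes did. Without BC array 7 there were 2 genes at that p and 9 without overlap. Atp6v0d2, a subunit of the lysosomal proton pump, read 10.34, 10.57 and 10.26 in HFD and 9.42, 10.24 and 9.60 in BC, with BC array 7 just under the HFD arrays and the other 2 well below. Its interval ran from -1.52 to 0.24. The lysosomal protease gene Ctsk read 8.25, 8.78 and 8.23 in HFD against 7.58, 8.15 and 7.93 in BC, a difference of -0.53 ± 0.37 (SE). Trem2, the lipid receptor that marks these cells, gave -0.48 ± 0.42 (SE) and Gpnmb -0.45 ± 0.44 (SE), both with overlapping groups. The HFD group itself stood above ND for these genes by a median of 0.91, with 2.08 for Trem2 and 2.42 for Atp6v0d2. That comparison shares the HFD arrays with the one described here, so the pairs of values are not independent.

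**Figure D3:**
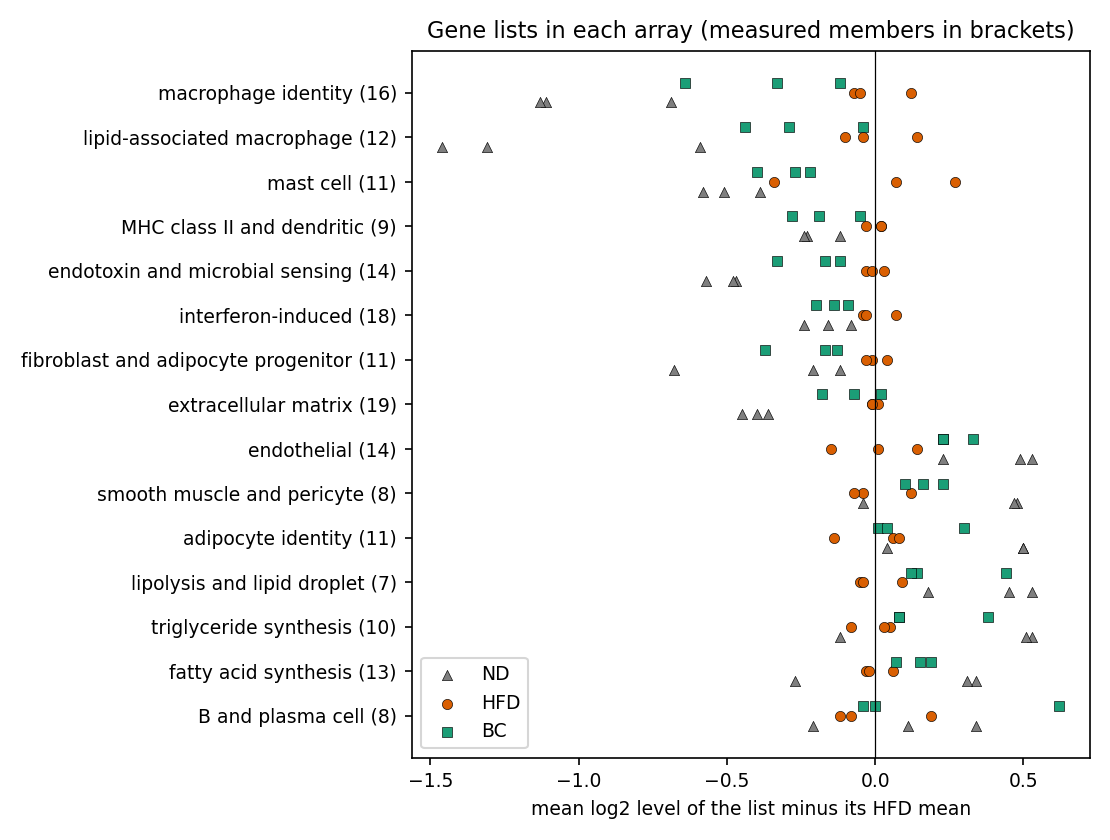
Mean log2 level of 15 gene lists on each ND, HFD and BC array, relative to the list's HFD mean (x axis), with the number of measured genes in brackets. BC arrays lie to the left of all HFD arrays for macrophage identity, from -0.64 to -0.12, and to the right for endothelial genes, from 0.23 to 0.33.

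The genes of antigen presentation by MHC class II gave a median difference of -0.27 over 9 measured members of the list, which also holds dendritic cell markers. Of the 9, 4 had an unadjusted p of 0.05 and were lower in BC, where 2.71 percent of all genes were, and 0 passed the threshold. H2-Ab1, the beta chain of the I-A molecule, read 11.16, 11.04 and 11.15 in HFD and 10.54, 11.01 and 10.68 in BC. BC array 7 was level with the HFD arrays and the other 2 were below, for a difference of -0.37 ± 0.15 (SE). H2-DMa, which loads peptides onto these molecules, gave -0.37 ± 0.14 (SE), H2-Aa -0.31 and Ciita, the master regulator of the class, -0.36. The dendritic cell genes Flt3 (0.04), Zbtb46 (0.04) and Ccr7 (0.23) had positive estimates. Without BC array 4 none of the 9 had an unadjusted p of 0.05, and without BC array 7 there were 5 lower and 1 higher. The macrophage list was lowest on BC array 4 as well, and its part in these differences was not tested.

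Of 14 measured genes that sense endotoxin and other microbial products or relay the signal, 11 had negative estimates, with a median of -0.22. Of these 14, 2 had an unadjusted p of 0.05, both lower (2.71 percent of all genes were), and this count was 1 without BC array 4 or HFD array 6 and 3 without BC array 7 or 11. Ly96, the endotoxin co-receptor MD-2, read 8.44, 8.60 and 8.56 in HFD and 7.89, 7.87 and 7.72 in BC. The 3 BC arrays agreed closely and all lay more than 0.5 under HFD, a difference of -0.71 ± 0.22 (SE) with a 95% interval from -1.17 to -0.24 and an adjusted p of 0.917 by limma. Over the alternative analyses the difference was between -0.76 and -0.56, with the smallest adjusted p at 0.0906, when only BC and HFD arrays were fitted. Tlr6, the partner of Tlr2 for bacterial lipopeptides, gave -0.46 ± 0.19 (SE).

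Tlr4, the endotoxin receptor itself, read 6.75, 6.83 and 6.84 in HFD and 6.58, 6.68 and 6.47 in BC, which did not overlap, a difference of -0.23 ± 0.12 (SE). Traf6 and Ticam1, adaptors downstream of these receptors, gave -0.24 and -0.21, both without overlap, though for Traf6 BC array 4 alone (5.17 against 5.74 and 5.75) carried most of the difference. Lbp, which hands endotoxin to Cd14, was 10.58, 10.37 and 10.62 in HFD and 10.85, 10.66 and 10.62 in BC, with a difference of 0.19 ± 0.20 (SE). Tlr2 gave -0.10, Tlr5, the flagellin receptor, 0.09 and the inflammasome sensor Nlrp3 -0.04. In all, 5 of the 14 genes lay below HFD on every BC array (7.35 percent of all genes did) and 1 above. Without BC array 4 the median of the list was -0.07. Macrophages express many of these genes, and the part of the macrophage list in their differences was not tested.

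Interferon-induced genes gave a median of -0.14 over 18 measured, 13 of them negative. Of the 18, 4 had an unadjusted p of 0.05, all lower in BC (2.71 percent of all genes were), and 6 lay below HFD on every BC array (7.35 percent of all genes). Without HFD array 7 the median was -0.08 and 1 gene had such a p, and without BC array 4 or HFD array 4 there were 2. Oasl2, an antiviral protein of the oligoadenylate synthetase family, read 6.53, 6.58 and 6.41 in HFD and 6.14, 6.19 and 6.19 in BC, a difference of -0.33 ± 0.12 (SE). Oas2 of the same family gave -0.33 ± 0.15 (SE), and the nuclear DNA-binding proteins Ifi204 and Ifi205 gave -0.52 and -0.42. Other members of the response did not share this: Isg15 (-0.06), Ifit1 (-0.03), Usp18 (0.00) and Irf1 (0.04) were near 0 and Ifit3 was at 0.30. Among 23 cytokine and chemokine genes the median was -0.08 (-0.04 without BC array 4 and -0.13 without BC array 11), and only Ccl11, which attracts eosinophils, had an unadjusted p of 0.05 (-0.42 ± 0.17, SE). Tnf read 5.50, 5.75 and 5.46 in HFD and 5.27, 5.35 and 5.23 in BC, without overlap, at -0.29 ± 0.21 (SE), and Ccl2, the monocyte attractant, gave -0.08 ± 0.25 (SE).

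Endothelial genes stood on the other side. All 14 measured had a positive estimate, where 52.3 percent of all genes did, with a median of 0.28, the highest of the 37 lists. Of the 14, 4 had an unadjusted p of 0.05 (2.47 percent of all genes were higher at that level), 6 lay above HFD on every BC array (7.11 percent of all genes), and 0 passed the threshold. Fabp4 (0.11), used above as an adipocyte gene and also on the adipocyte identity list, is counted among these 14 and these 6. Relative to the HFD mean, the list stood at 0.33, 0.23 and 0.23 on the BC arrays, 0.01, -0.15 and 0.14 on the HFD arrays, and 0.49, 0.53 and 0.23 on the ND arrays. The BC mice were close to one another here, unlike for the macrophage genes.

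Pecam1, the junction protein of endothelial cells known as CD31, read 8.72, 8.58 and 8.76 in HFD and 9.11, 8.96 and 9.16 in BC. Its difference was 0.39 ± 0.11 (SE), with an interval from 0.15 to 0.63, and its BC mean of 9.08 was close to the ND mean of 9.04. Vwf, the clotting factor stored in endothelium, read 6.35, 6.16 and 6.43 in HFD and 6.72, 6.70 and 6.68 in BC, which is 0.39 ± 0.12 (SE). Emcn, a surface protein of capillaries and veins, read 7.26, 7.07 and 7.42 in HFD and 7.64, 7.67 and 7.59 in BC. Egfl7 gave 0.39 and the tight junction gene Cldn5 0.42, both without overlap, while Kdr, the main receptor for Vegfa, gave 0.20 and Eng and Tek gave 0.05 and 0.09. Not every member kept its sign. With array medians equalised 13 of 14 were positive, and without HFD array 6, the HFD array with the lowest endothelial level, 12 of 14 were. Over the alternatives the median of the list stayed between 0.20 and 0.33. The list's median difference between BC and the other 4 supplemented groups was 0.05.

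Vessel wall and connective tissue genes lay on both sides of 0. Smooth muscle and pericyte genes had a median of 0.16 with 7 of 8 positive. Notch3, a receptor of pericytes, had an unadjusted p of 0.05 (0.28 ± 0.11, SE), and Myh11, the smooth muscle myosin, read 6.58, 6.51 and 6.94 in HFD and 7.17, 6.94 and 7.07 in BC. Fibroblast and adipocyte progenitor genes had a median of -0.24, with 10 of 11 negative and 5 of 11 below HFD on every BC array (7.35 percent of all genes). Without BC array 4 the median was -0.14. Mfap5, a microfibril protein, read 9.14, 9.41 and 9.12 in HFD and 8.51, 9.09 and 8.74 in BC, a difference of -0.44 ± 0.17 (SE). Pdgfra, the receptor that marks adipocyte progenitors, gave -0.33 ± 0.14 (SE), and BC array 4, at 7.59 against 8.09 and 8.20, was the low one. Pi16, of a progenitor population in fat, gave -0.68 ± 0.38 (SE) without overlap. The 19 extracellular matrix genes had a median of -0.10, and -0.05 without BC array 4.

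The lipid-handling genes of adipocytes leaned towards higher levels in BC, in small amounts. All 7 genes of lipolysis and the lipid droplet had positive estimates (median 0.21), as did 9 of 10 genes of triglyceride synthesis (median 0.17) and 10 of 11 adipocyte identity genes (median 0.11), and in none of these 3 lists did a gene have an unadjusted p of 0.05. Without BC array 4 the adipocyte identity list had a median of 0.03 with 6 of 11 positive and the triglyceride synthesis list 0.07 with 7 of 10 positive, and without HFD array 6 these medians were 0.04 and 0.11. G0s2, an inhibitor of the main triglyceride lipase, read 7.62, 7.53 and 7.59 in HFD and 8.36, 7.77 and 7.82 in BC, a difference of 0.40 ± 0.20 (SE) to which BC array 4 added most. The gene's dimmer probe gave 0.19 ± 0.18 (SE). Plin4, a droplet coat protein, gave 0.38 ± 0.21 (SE), and Gpat3, an enzyme of triglyceride synthesis, 0.41 ± 0.28 (SE) by one probe and 0.08 ± 0.23 (SE) by the other. BC array 4 was the highest BC array for 6 of the 7 droplet genes and 9 of the 10 synthesis genes. It was also the BC array lowest in macrophage genes, and the part of the one in the other was not tested.

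Fatty acid synthesis genes included a pair of elongases on opposite sides. Elovl6, which extends palmitate to stearate, read 7.18, 7.27 and 7.22 in HFD and 6.64, 6.69 and 6.44 in BC. All 3 BC arrays were well below all HFD arrays, with a difference of -0.63 ± 0.28 (SE), an interval from -1.22 to -0.05 and an adjusted p of 0.917. Elovl3, which makes very long chains and is induced in brown fat, read 3.53, 4.60 and 3.61 in HFD and 4.68, 4.51 and 4.95 in BC, overlapping because of HFD array 6, at 0.80 ± 0.35 (SE). Fasn was at 0.03, Acly at 0.04, Scd1 at 0.06 and Acaca at 0.10. Acacb, the acetyl-CoA carboxylase at the mitochondrial surface, gave 0.31 ± 0.18 (SE) and Slc25a1, the citrate carrier of mitochondria, 0.32 ± 0.15 (SE), both without overlap. Over the 13 genes the median was 0.10. Of 9 measured genes of thermogenesis, 8 had positive estimates, and the median was 0.09. Apart from Elovl3, none had a larger positive estimate than 0.14 (Prdm16 and Cidea). The 1 negative estimate was for Ebf2, a regulator of brown adipocyte fate, with -0.32 ± 0.14 (SE) and, by its second probe, -0.23 ± 0.20 (SE).

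A panel of 23 measured genes commonly followed in diet-induced obesity showed how closely the comparison bounds the main markers. Of these, 13 had positive and 10 negative estimates, with a median of 0.03, and none had an unadjusted p of 0.05. The smallest was 0.0692, for Tlr4. The 95% interval lay within 1 log2 unit of 0 for 21 of them, all but Cd68 and Adgre1, and within 0.5 for 16. Leptin (Lep) read 11.48, 11.46 and 11.61 in HFD and 11.74, 11.55 and 11.55 in BC, a difference of 0.10 ± 0.18 (SE), and adiponectin (Adipoq) read 9.32, 9.10 and 9.37 against 9.56, 9.34 and 9.26, a difference of 0.12 ± 0.17 (SE). Both overlapped. The adipocyte regulator Pparg gave 0.05, the glucose transporter Slc2a4 0.06, the insulin receptor substrate Irs1 0.08 and Mest, a gene of fat expansion, -0.01. Il6, at levels between 1.54 and 1.80, was near the bottom of the range of the table in both groups.

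**Figure D4:**
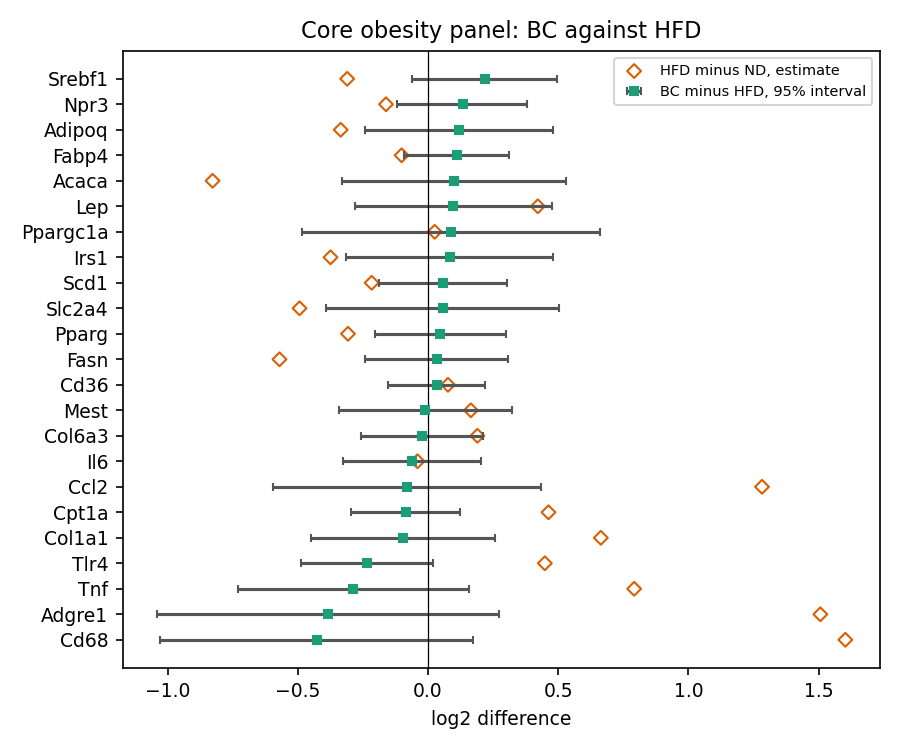
Log2 difference between BC and HFD with its 95% interval (squares and lines) for the 23 measured genes of the obesity panel, beside the estimate of HFD minus ND (diamonds). Every BC interval includes 0; the 2 sets of values share the HFD arrays.

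Some list values rested on single mice. The B and plasma cell list had a median of 0.21, but BC array 11 was the highest BC array for all 8 genes. The list stood at 0.62 on that array and at 0.00 and -0.04 on the other 2, and its median without that array was 0.12. Jchain, which joins secreted antibodies, read 6.16 on BC array 11 against 3.83 and 3.16 on the others and 4.03, 3.66 and 4.75 in HFD. An immunoglobulin kappa variable segment, picked for its large estimate after its values were seen, read 10.31 on that array, 8.24 and 7.03 on the other BC arrays, and 7.31, 7.04 and 7.85 in HFD. Its difference of 1.12 ± 0.66 (SE) thus rested on 1 mouse.

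Mast cell genes gave 2 of the 6 differences above 1 log2 unit in the whole table, and these 6 were likewise picked after their values were seen. Cpa3, the mast cell carboxypeptidase, read 5.72, 7.90 and 7.50 in HFD and 4.92, 6.17 and 6.52 in BC, a difference of -1.17 ± 0.62 (SE). Mcpt4, a mast cell chymase, read 3.27, 5.29 and 4.94 in HFD and 3.03, 3.56 and 3.56 in BC, a difference of -1.12 ± 0.43 (SE). For both, HFD array 4 was as low as BC, and the Mcpt4 difference ran from -1.74 to -0.73 as single arrays were left out. The 11 mast cell genes had a median of -0.09, and Fcer1a, Mcpt2 and Ms4a2 were at 3.02 or lower on all 6 arrays. Olfr111, an olfactory receptor gene, read 6.91, 7.64 and 7.48 in HFD and 5.49, 6.43 and 6.20 in BC, with no overlap and a difference of -1.30 ± 0.55 (SE). The others were Gm5431 (-1.09 ± 0.26, SE) and Sptlc3, a subunit of the enzyme that starts sphingolipid synthesis (1.06 ± 0.41, SE).

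Complement genes lay on both sides of 0. The C1q chains were lower, as given above, while Cfb, factor B of the alternative pathway, read 9.35, 9.07 and 9.24 in HFD and 9.63, 9.52 and 9.57 in BC, at 0.35 ± 0.13 (SE). C4b gave 0.43 and C6 0.47, and these 3 of 12 had an unadjusted p of 0.05, where 2.47 percent of all genes were higher at that level. The count was 1 without BC array 4 or 11 and 0 without HFD array 6. Of 13 receptors and carriers for short-chain fatty acids, bile acids and related ligands, Gpbar1, the cell surface bile acid receptor, gave 0.40 ± 0.15 (SE), with 3.79, 3.65 and 4.10 in HFD and 4.02, 4.20 and 4.52 in BC, and the list's median was 0.05. Among 11 acute phase genes, Orm2 gave -0.98 ± 0.34 (SE), with BC array 7 (5.84) inside the HFD range of 5.74 to 6.54. Genes of the epididymis and of sperm, which lie next to this depot, had a median of 0.18 over 13 (0.11 without BC array 11). Acr, the sperm protease acrosin, read 5.18, 4.89 and 5.14 in HFD and 5.50, 5.32 and 5.40 in BC, a difference of 0.34 ± 0.10 (SE). Against the other 4 supplemented groups, Acr differed by -0.06 ± 0.08 (SE) in BC and by -0.39 ± 0.08 (SE) in HFD.

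Over all 37 lists, 22 medians were positive and 15 negative, from -0.40 for macrophage identity to 0.28 for endothelial genes, and no list held a gene past the threshold. Lists with medians near 0 included the circadian clock (0.03 over 13 genes), fatty acid oxidation (0.05 over 15), the respiratory chain (0.07 over 17), insulin signalling and glucose uptake (0.07 over 10), antioxidant defence (-0.03 over 15) and the unfolded protein response (-0.05 over 14). For 12 lists the median turned sign under at least 1 alternative, and the largest median among them was 0.09 in size.

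To place each array along the response to diet without using the BC or HFD arrays to choose genes, 828 genes were taken that differed between ND and the mean of the other 4 supplemented groups, 672 of them higher and 156 lower on the high-fat diet. The mean signed distance from ND was 0.71, 0.86 and 0.70 on HFD arrays 4, 6 and 7 and 0.40, 0.66 and 0.53 on BC arrays 4, 7 and 11. All 3 BC arrays lay between the ND arrays (-0.03, -0.08 and 0.11, which average 0 by construction) and the HFD arrays. BC array 7 came close to the nearest HFD array. The other supplemented arrays, on which the genes were chosen, ran from 0.18 (H_FMG array 8) to 0.94 (RMG array 4). All L_FMG and H_FMG arrays also lay between ND and HFD, so this place was not particular to BC. The scores describe single arrays and were not tested. An exact permutation test of 3 against 3 cannot give a two-sided p below 0.1. After quantile normalization, where 521 genes met the rule, the scores were 0.72, 0.89 and 0.70 in HFD and 0.41, 0.68 and 0.55 in BC. The order of BC arrays on this axis, with array 4 nearest to ND and array 7 nearest to HFD, is also their order for macrophage genes. Macrophage genes were not removed from the axis, so both orders may rest on shared genes.

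**Figure D5:**
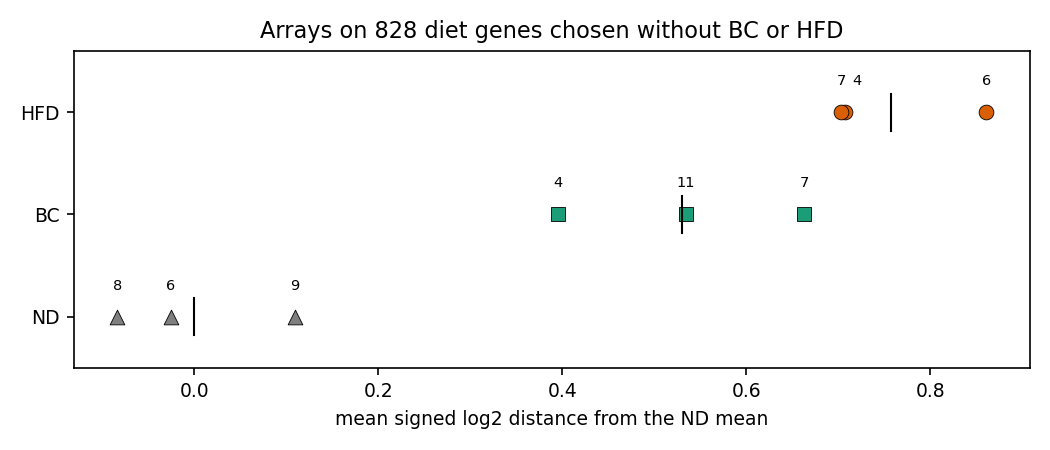
Mean signed log2 distance from the ND mean for each ND, BC and HFD array, over 828 genes. The genes were chosen on ND and the 4 other supplemented groups. Title numbers stand above the points, and lines mark group means. BC arrays lie from 0.40 to 0.66, below the HFD arrays at 0.70 to 0.86.

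A further contrast set BC against the mean of the other 4 supplemented groups, which have the high-fat diet in common with BC and do not include the HFD arrays. It called 1 gene of 16248 higher (0.00615 percent) and 0 lower (0 percent) at an adjusted p of 0.05 by limma with Benjamini-Hochberg adjustment, and 605 (3.72 percent) at an unadjusted p of 0.05, 303 higher and 302 lower (1.86 percent each). The called gene was Rxfp2, with group means ± SD over 3 arrays each of 3.47 ± 0.29 in BC, 2.50 ± 0.08 in RMG, 2.64 ± 0.03 in SMG, 2.50 ± 0.18 in L_FMG and 2.62 ± 0.05 in H_FMG. The lowest BC array, at 3.18, was above the highest of the other 12, at 2.68. The difference was 0.91 ± 0.14 (SE), adjusted p = 0.0349. Rxfp2 in HFD did not differ from those 4 groups past the threshold (0.16 ± 0.14, SE, adjusted p = 0.986), while ND, with 3.25, 3.39 and 2.59, overlapped BC.

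The call for Rxfp2 was not stable. It was lost after quantile normalization (adjusted p = 0.131), without BC array 4 (0.132), without BC array 11 (1.0), when every probe was tested (0.0727) and with the title number as a block (1.0), and it held under the other 6 alternatives that gave it a value. Rxfp2 has 1 probe, so 1 of these 6, the mean of a gene's probes, could not change its levels. All Rxfp2 levels lay in the lower part of the range of the table, and the gene is below the median gene in mean level, so it was not tested when dim genes were left out. The epididymis and sperm list stood at 0.06, -0.01 and 0.27 on BC arrays 4, 7 and 11 relative to the HFD mean, and its part in the Rxfp2 difference was not tested.

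Other genes with a small p in this contrast did not pass the threshold. Lrrn1, picked among genes with BC arrays above all 12 others, gave 0.62 ± 0.14 (SE, adjusted p = 0.614 by limma). Lipf, a gastric-type lipase, read 8.81, 8.07 and 8.91 in BC and differed by 1.11 ± 0.30 (SE, adjusted p = 1). Elovl3, given above, differed by 1.18. On the lower side were Olfr1033 (-0.78 ± 0.15, SE, adjusted p = 0.306), the hair keratin gene Krt36 (-0.51), Emilin2, a matrix glycoprotein (-0.54), and Clec4a4 (-0.50). The macrophage identity list had a median of -0.09 in this contrast and the MHC class II list -0.14, against -0.40 and -0.27 for BC minus HFD.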

How the data were processed

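The table as deposited holds log2 levels of 24292 probes on 21 arrays; RNA from epididymal fat was extracted with Trizol, per the labels' protocols. How the authors summarised and normalized the probes, and the log base, is not stated in the labels, and the base was taken from the range of the values. Of the probes, 24291 had all values, 17067 of these had 1 gene symbol in the platform annotation, and 668 genes had several probes. No further normalization was applied. limma 3.58.1 in R 4.3.3 was fitted over all 21 arrays with 1 coefficient per group and an intensity trend, and two-sided p-values were adjusted by Benjamini-Hochberg over 16248 genes (threshold 0.05). The table gives no detection call, and depth does not apply to arrays, whose number limits the precision. The test was tried on simulated data. Named genes were the 10 per direction with the smallest p and non-overlapping arrays (predicted gene models left out), the 2 of each list with the smallest p, the obesity panel, and 5 per direction for BC against the other supplemented groups; other list members are given as examples. The comparison, lists and rules were chosen with earlier results of these data known. Title numbers 4 and 7 occur in both groups. They were taken as numbers of singly housed mice and were not used as pairs. Alternatives were quantile normalization, equal array medians, no dim genes, only the groups compared, no trend, array weights, the mean of a gene's probes, every probe, a block on the title number, and leaving out each array.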

Additional observations from a re-analysis of the deposited data

Results flagged for a closer look

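Rxfp2 is singled out because BC differed from the other 4 supplemented groups by a test of that difference, 0.91 on the log2 scale, in limma with Benjamini-Hochberg adjustment, and all 3 BC arrays lay above all 12 others. The adjusted p ranged from 0.00267 to 1.0 over the 11 alternatives that gave a value, and it passed the threshold in 6 of them. Of these 6, the mean of a gene's probes could not change the levels of Rxfp2, which has 1 probe. No explanation was tested.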

How the results depend on the processing

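For BC against HFD the count of genes past the threshold was 0 in the main analysis and in all 15 alternatives (limma, Benjamini-Hochberg), with 495 to 1542 genes at an unadjusted p of 0.05 and 0.0906 as the smallest adjusted p. Leaving out single arrays gave a count of 0 each time. For BC against the other 4 supplemented groups the count of 1 became 0 after quantile normalization, 0 with dim genes left out, 0 with every probe tested and 0 with the title number as a replicate block, and it ranged from 0 to 2 when single BC arrays were left out; without BC array 7 the second gene was Ugt8a. The cause was not tested. The block fit also called 0 genes for BC against HFD. Deviations of same-numbered arrays correlated at 0.15 for number 4 and -0.12 for number 7, and those of differently numbered arrays between -0.16 and 0.14. So few values cannot decide whether the numbers mark a pairing. Of 1754 values for named genes in BC against HFD, 27 turned sign, in 13 of 119 genes, the largest of which had a difference of 0.27 in size, and 0 passed the threshold. Of 333 list medians 32 turned sign. With 3 arrays a group, the simulated test left most differences of 0.5 log2 units undetected, and none of the 6 real estimates above 1 passed the threshold.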
